A study of Mus musculus with 12 samples.

Results

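The genes of tRNA charging and of the cellular response to amino acid shortage were followed in mouse bone marrow neutrophils kept with or without granulocyte colony-stimulating factor (G-CSF). Members were chosen by name: 34 genes whose symbol is 1 letter followed by ars, with or without a final 2, and 21 of 22 further genes named one by one. These 55 genes were taken from a table of 13935 gene rows; Aldh1l2, the other gene on the list, is not analysed here. They comprised 20 cytosolic synthetases, 17 mitochondrial synthetases, 7 stress regulators, 5 genes of amino acid synthesis, 5 folate one-carbon enzymes and 1 lipoprotein receptor gene, Vldlr.

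Aminoacyl-tRNA synthetases attach each amino acid to its tRNA before it is used by the ribosome, and most amino acids have a cytosolic and a mitochondrial enzyme encoded by separate genes. Uncharged tRNA activates the kinase GCN2, which phosphorylates the translation factor eIF2alpha. General protein synthesis then slows while translation of the transcription factor ATF4 goes up. ATF4 turns on genes for amino acid synthesis, uptake and tRNA charging, often through a promoter element called CARE, the C/EBP-ATF response element. The same arm is entered from the endoplasmic reticulum through the kinase PERK, and RNA levels do not report the translational step.

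The cells were flow sorted as CD45+CD11b+Ly6G+ neutrophils from femur marrow and incubated for 8 h. There were 4 groups of 3 libraries: LysMcre Socs3fl/fl cells with 10 ng/ml G-CSF, LysMcre Socs3fl/fl cells left untreated, Socs3fl/fl cells with G-CSF, and Socs3fl/fl cells left untreated. Both genotypes thus carry loxP-flanked Socs3, a feedback inhibitor of STAT3 signalling, and they differ by a Cre recombinase driven from the lysozyme 2 locus, which is active in other myeloid cells as well as in neutrophils. The 2 genotypes are called LysMcre-labelled and floxed. The labels do not say whether separate mice were used within a group, so a p-value measures only how far these libraries spread, and that spread may be technical. Age and sex are not given in the labels.

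Values are normalized counts: the reads of a gene, scaled by a single size factor for each library. Libraries held 19495754 to 26472118 recovered reads. Socs3 itself was not lower in the LysMcre-labelled libraries. It had 35984, 37668 and 38354 normalized counts in LysMcre-labelled G-CSF libraries, against 21391, 18533 and 18588 in floxed G-CSF libraries. Untreated, it had 313, 311 and 253 in LysMcre-labelled libraries, against 225, 201 and 248 in floxed libraries, a log2 difference of 0.38 (SE 0.09, limma adjusted p = 0.329). The files do not say which part of Socs3 is flanked, so this level does not check the deletion. Lyz2, the locus that carries the Cre, did separate the labels. It had 507, 564 and 637 in LysMcre-labelled G-CSF libraries, against 44425, 49035 and 45220.0 in floxed G-CSF libraries. Untreated, Lyz2 averaged 6053 ± 493 in LysMcre-labelled and 222593 ± 3235 in floxed libraries (SD, n = 3 each). The genotypes thus differ in the level of Lyz2 itself, and its part in the results by genotype was not tested. Every direction by genotype given here rests on the label. All 13 neutrophil markers were detected in each group, and their summed level lay between 1842620 and 2189600 normalized counts in the 12 libraries. Single markers did move with the comparisons made below. With G-CSF 5 of the 13 rose and 7 fell in LysMcre-labelled cells, 5 rose and 7 fell in floxed cells, and by genotype with G-CSF 2 were higher and 7 lower. In either direction these were 92.3%, 92.3% and 69.2% of the markers, against 62.6%, 48.75% and 36.0% of all genes tested. Cxcr2, a chemokine receptor of mature neutrophils, rose by 2.17 on the log2 scale in LysMcre-labelled and 1.74 in floxed cells. The granule protein genes Ltf and Camp and the secreted protein gene Retnlg fell, with log2 differences of -2.56, -2.53 and -3.08 in LysMcre-labelled cells and -1.74, -1.60 and -1.31 in floxed cells. By genotype with G-CSF these 3 were lower in LysMcre-labelled cells, with differences of -0.95, -1.08 and -1.86. These 4 markers were picked after their values were seen, and the part of such shifts in the members' results was not tested.

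The promoter of Asns, which makes asparagine, is shown because it holds a CARE match shortly before the start. Promoters are RefSeq windows on GRCm38.p6, the build also called mm10, and run from 250 bases before to 50 bases after a transcription start. Such a window was found for 44 of the 55 members. The 250 bases before the start are printed in the gene's direction at chr6:7693210-7693459, minus strand. Capitals mark the CARE match, searched as TGATGNAAN on both strands, so that it also appears as its reverse complement.
Asns: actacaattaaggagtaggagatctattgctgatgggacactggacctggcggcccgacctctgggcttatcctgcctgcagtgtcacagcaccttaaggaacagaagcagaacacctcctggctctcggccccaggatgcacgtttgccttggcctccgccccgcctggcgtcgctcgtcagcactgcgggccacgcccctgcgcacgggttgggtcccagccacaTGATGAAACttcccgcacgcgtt

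The same element is shown with 10 bases on either side for 8 of the 9 members that hold it. Capitals again mark the 9 matched bases, and all stretches read 5′ to 3′ in the gene's direction. The match of Asns begins 23 bases before its start and that of Tars 16 bases before it, those of Gars, Chac1 and Vldlr lie farther upstream, and the matches of Iars, Trib3 and Yars lie after the start.
Asns: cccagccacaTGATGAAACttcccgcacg
Chac1: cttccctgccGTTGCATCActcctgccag
Gars: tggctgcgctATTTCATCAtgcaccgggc
Iars: cactgtcagtATTGCATCAcctccagacg
Tars: caggagtcccGTTGCATCAgctggttagc
Trib3: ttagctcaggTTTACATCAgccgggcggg
Vldlr: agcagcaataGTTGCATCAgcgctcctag
Yars: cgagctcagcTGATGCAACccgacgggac

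CARE was present in 9 of 44 member promoters (20.5%), against 4.50% of all 27025 genes with a window and 2.82% of the 9552 of them that are in the expression table. These members were named as genes of tRNA charging and of the amino acid response, in which ATF4 often acts through CARE. Their share is therefore not independent of how they were chosen. An E-box, CACGTG, was present in 5 of 44 member promoters (11.4%), against 11.7% of the genes in the table. A STAT palindrome, TTCNNNGAA, was present in 4 of 44 (9.09%), against 8.38% of the genes in the table. The 3 motifs do not overlap one another in these windows. A match is a stretch of letters and not a known binding site, and a gene without one may be controlled from elsewhere.

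**Figure D1:**
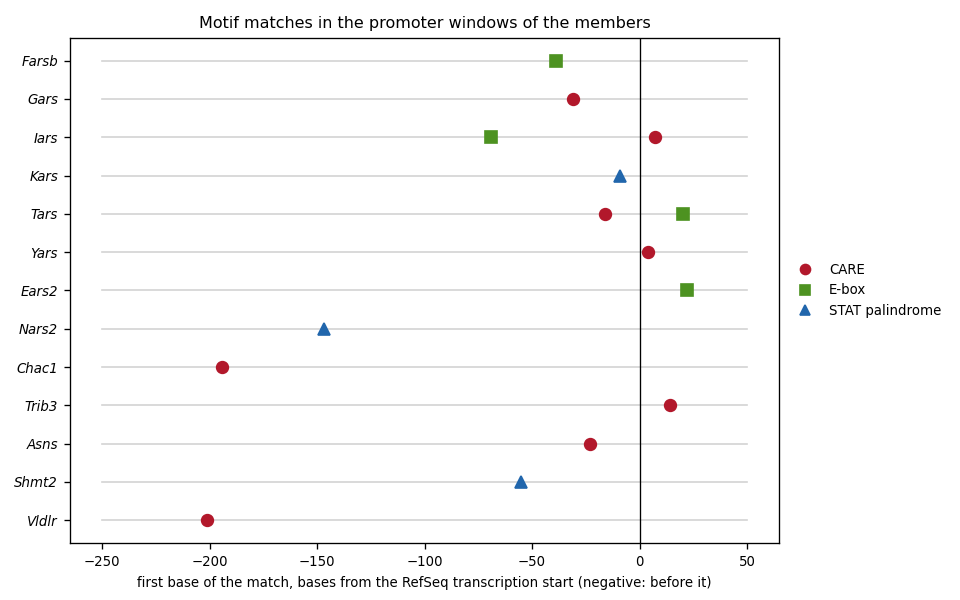
Positions of the 3 motifs in the promoter windows of 13 members that hold any of them, in bases from the RefSeq start (horizontal axis, grey line the window). Circles mark CARE, squares the E-box and triangles the STAT palindrome; Iars and Tars each hold a CARE match and an E-box.

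With G-CSF, most of the module was higher in both genotypes. In LysMcre-labelled cells 36 of 55 members rose, against 31.1% of all genes tested, and 6 fell, against 31.6%. In floxed cells 32 members rose, against 24.1% of all genes, and 6 fell, against 24.6%. The members' median log2 difference was 0.62 in LysMcre-labelled and 0.50 in floxed libraries, where the medians over all 13915 genes were -0.00033 and 0.0044. A member is said to have risen or fallen where limma gave a Benjamini-Hochberg adjusted p under 0.05 over all genes tested, and all 55 members were above the filter of a mean of 10 normalized counts.

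The roles differed in these counts. Of the 20 cytosolic synthetases, 16 rose and 2 fell in LysMcre-labelled cells, and 15 rose and 3 fell in floxed cells. Of the 17 mitochondrial synthetases, 4 rose and 4 fell in LysMcre-labelled cells, and 2 rose and 2 fell in floxed cells. Of the 18 members outside the synthetases, 16 rose and 0 fell in LysMcre-labelled cells, and 15 rose and 1 fell in floxed cells. Unadjusted, those 18 had 16 limma p-values under 0.05 in LysMcre-labelled cells and 17 in floxed cells. Of all 13915 genes, 9128 and 7487 had such a p-value. The rises of mitochondrial synthetases, 23.5% and 11.8%, lay below the 31.1% and 24.1% of all genes. Those of cytosolic synthetases, 80% and 75%, and of the other 18 members, 88.9% and 83.3%, lay above.

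The total of normalized counts moved with treatment. It was 24557800 to 25807100 in LysMcre-labelled G-CSF libraries, against 20503100 to 21167900 in LysMcre-labelled untreated ones. It was 22050400 to 23958000 in floxed G-CSF libraries, against 21200500 to 21831200 in floxed untreated ones. When every library is instead scaled to the same total, the median of all genes shifts to -0.26 in LysMcre-labelled and -0.088 in floxed cells, and 31.2% and 38.5% of calls are rises, where the deposited scaling gives 49.6% and 49.5%. On that scale 27 members rose and 12 fell in LysMcre-labelled cells, and 29 rose and 9 fell in floxed cells. Of all 13915 genes, 2864 rose and 6315 fell in LysMcre-labelled cells on that scale, and 2646 rose and 4222 fell in floxed cells. In bulk RNA, fewer cells of a type and less RNA per cell cannot be told apart.

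**Figure D2:**
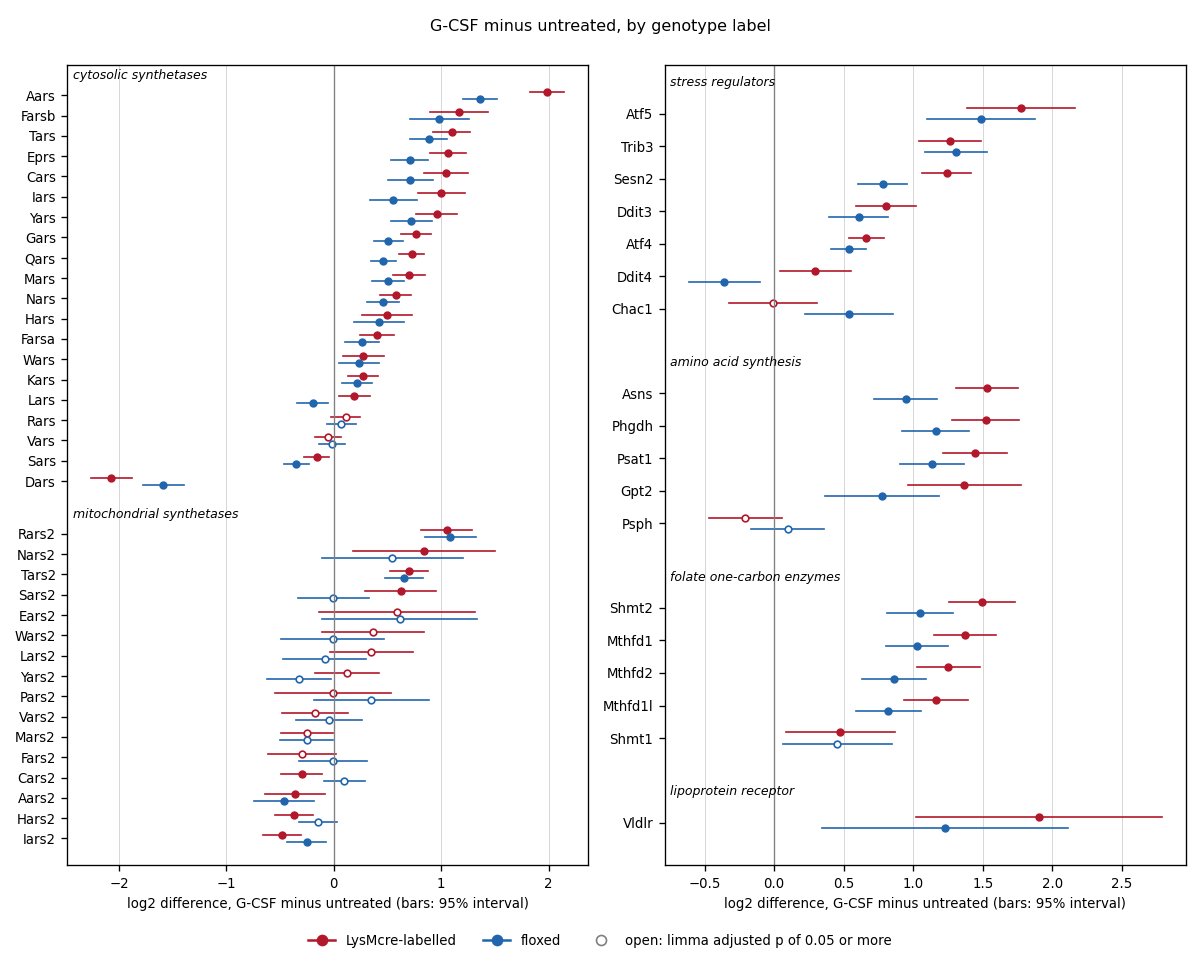
Log2 difference, G-CSF minus untreated, for 54 members by role (vertical axis), in LysMcre-labelled (red, upper) and floxed (blue, lower) libraries; lines are 95% intervals and open points did not pass. Most cytosolic synthetases, all folate enzymes and most amino acid synthesis genes lie right of 0, Dars lies far to the left, and mitochondrial synthetases lie on both sides.

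The transcription factors at the centre of the response rose. Atf4 (chr15:80255184-80257541, plus strand), which drives the amino acid response, had 4073, 4386 and 4442 in LysMcre-labelled G-CSF libraries, against 2788, 2593 and 2763 in LysMcre-labelled untreated libraries. In floxed cells Atf4 had 4280.2, 3905 and 4066 in floxed G-CSF libraries, against 2957, 2882 and 2623 in floxed untreated libraries. The groups did not overlap in either genotype. The log2 difference was 0.66 (SE 0.06, limma adjusted p = 1.04e-07) in LysMcre-labelled and 0.53 (SE 0.06, limma adjusted p = 2.16e-06) in floxed cells. Atf5, a related factor that is also translated under stress, changed by more. It had 1514, 1459 and 1623 in LysMcre-labelled G-CSF libraries, against 514, 503 and 343 in LysMcre-labelled untreated libraries. In floxed libraries Atf5 had 1304, 1099.7 and 1129 in floxed G-CSF libraries, against 521, 479 and 294 in floxed untreated libraries. Its log2 differences were 1.78 (SE 0.18, limma adjusted p = 4.53e-07) and 1.49 (SE 0.18, limma adjusted p = 5.66e-06), with replicate 3 the lowest untreated library of each genotype. Atf5 shares 82 exon bases with Nup62 and Il4i1, and the strand setting of the counting is not given in the sources used here.

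Ddit3, which encodes CHOP, a factor of prolonged stress, had 934, 1076 and 1179.9 in LysMcre-labelled G-CSF libraries, against 609, 667 and 546 in LysMcre-labelled untreated libraries. Floxed libraries had 994, 891 and 883 in floxed G-CSF libraries, against 557, 583 and 680.4 in floxed untreated libraries. All G-CSF libraries were above all untreated ones, and the log2 differences were 0.81 (SE 0.10) and 0.61 (SE 0.10) (limma adjusted p = 4.04e-06 and 0.000115). Trib3, a pseudokinase that restrains ATF4 and CHOP, had 324, 344 and 386 in LysMcre-labelled G-CSF libraries, against 154, 154 and 130.0 in LysMcre-labelled untreated libraries. In floxed cells Trib3 had 380.2, 334 and 349 in floxed G-CSF libraries, against 152, 145 and 131 in floxed untreated libraries. It rose 2.41-fold in LysMcre-labelled and 2.48-fold in floxed cells, with differences of 1.26 (SE 0.10) and 1.31 (SE 0.10) (limma adjusted p = 3.93e-08 and 5.15e-08).

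Sesn2, a leucine-binding inhibitor of the growth kinase complex mTORC1, had 5063, 5870.1 and 6305 in LysMcre-labelled G-CSF libraries, against 2404, 2546 and 2320.2 in LysMcre-labelled untreated libraries. In floxed cells Sesn2 had 4548, 4025 and 3759.5 in floxed G-CSF libraries, against 2281, 2369 and 2510.0 in floxed untreated libraries. Its differences were 1.24 (SE 0.082) in LysMcre-labelled and 0.78 (SE 0.082) in floxed cells (limma adjusted p = 2.72e-09 and 1.11e-06).

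Chac1 and Ddit4 did not follow the other regulators. Chac1 (chr2:119351229-119354381, plus strand), an enzyme that degrades glutathione and a CARE-bearing target of ATF4, had 178, 205 and 248 in LysMcre-labelled G-CSF libraries, against 208, 242 and 183 in LysMcre-labelled untreated libraries. These LysMcre-labelled groups overlapped, and the difference was -0.0074 (SE 0.15) with a 95% interval of -0.32 to 0.31 (limma adjusted p = 0.97). In floxed cells Chac1 had 395, 291 and 288 in floxed G-CSF libraries, against 243, 213 and 207 in floxed untreated libraries, without overlap, and rose by 0.54 (SE 0.15, limma adjusted p = 0.00691). Floxed G-CSF replicate 1 was the highest library.

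Ddit4 (chr10:59949669-59951834, minus strand), an inhibitor of mTORC1 also known as REDD1, had 371, 469 and 410.1 in LysMcre-labelled G-CSF libraries, against 333, 306 and 378 in LysMcre-labelled untreated libraries. Floxed libraries had 245, 231 and 253 in floxed G-CSF libraries, against 273, 299 and 372 in floxed untreated libraries. It rose in LysMcre-labelled cells by 0.30 (SE 0.12, limma adjusted p = 0.043) and fell in floxed cells, with a difference of -0.36 (SE 0.12, limma adjusted p = 0.0216). The LysMcre-labelled groups overlapped and the floxed groups did not. The rise was not called without LysMcre-labelled G-CSF replicates 2 or 3, LysMcre-labelled untreated replicates 1 or 2 or floxed G-CSF replicates 2 or 3 (0.21 to 0.30, limma adjusted p = 0.0509 to 0.188), and with libraries scaled to equal totals its adjusted p in limma was 0.822. The fall in floxed cells was not called without floxed G-CSF replicate 2 or floxed untreated replicate 3 (-0.32 to -0.23, limma adjusted p = 0.0742 to 0.118).

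**Figure D3:**
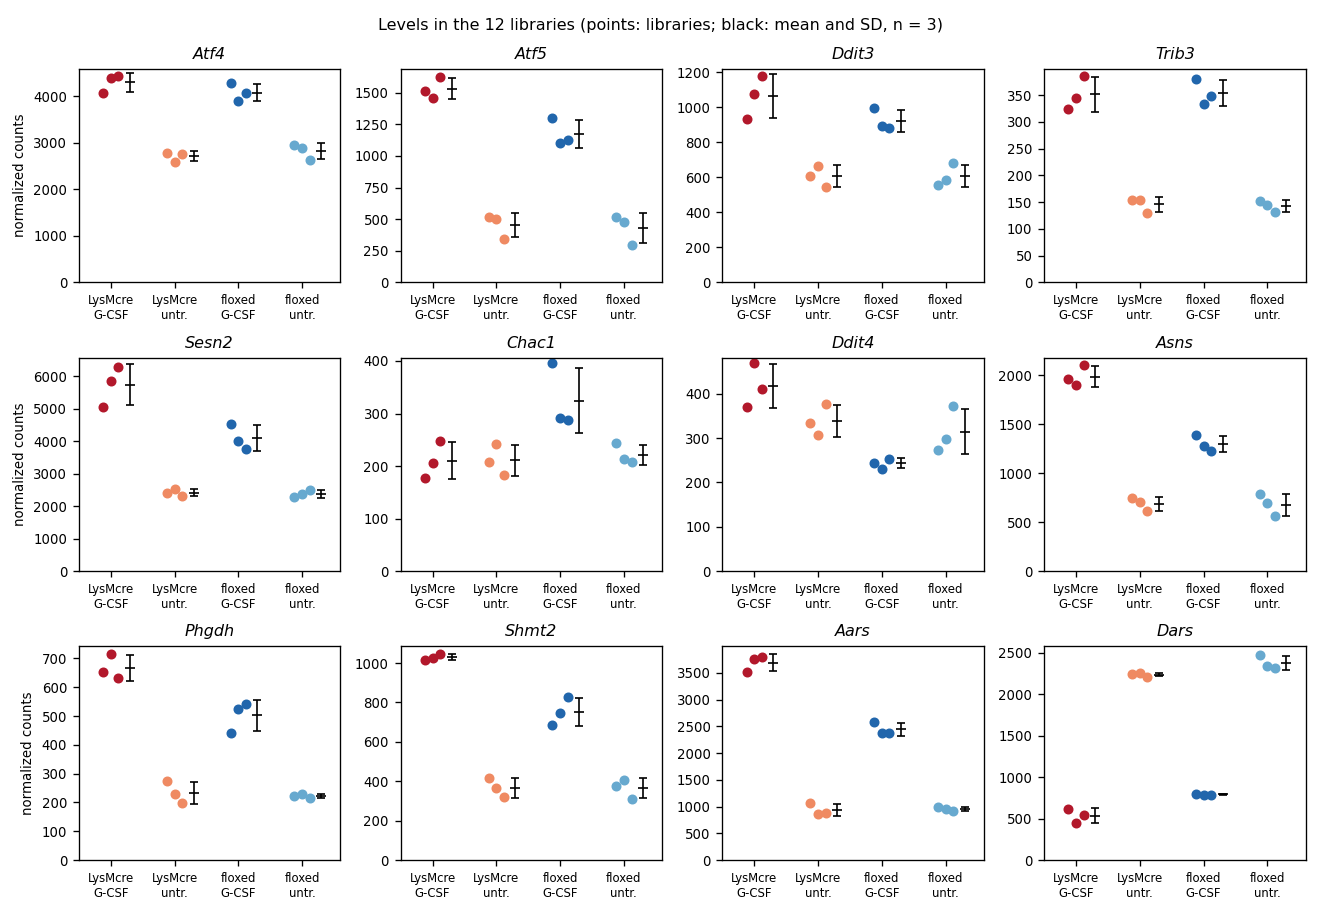
Normalized counts (vertical axes from 0) of 12 members in each of the 12 libraries, with the mean and SD of the 3 libraries of a group in black; groups run LysMcre-labelled G-CSF, LysMcre-labelled untreated, floxed G-CSF, floxed untreated. Asns, Aars, Shmt2 and Sesn2 are highest in LysMcre-labelled G-CSF libraries, the Trib3 and Atf4 values of the 2 G-CSF groups overlap, and Dars is lowest with G-CSF.

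Genes that make amino acids rose together, apart from Psph. Asns (chr6:7675169-7693254, minus strand), asparagine synthetase, had 1960.2, 1898 and 2105 in LysMcre-labelled G-CSF libraries, against 752, 703 and 612 in LysMcre-labelled untreated libraries. In floxed cells Asns had 1392, 1283 and 1232 in floxed G-CSF libraries, against 788, 692 and 564 in floxed untreated libraries. That is a 2.89-fold rise in LysMcre-labelled cells and a 1.91-fold rise in floxed cells, with log2 differences of 1.53 (SE 0.11) and 0.95 (SE 0.11) (limma adjusted p = 4.20e-09 and 2.03e-06).

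The serine pathway starts at 3-phosphoglycerate dehydrogenase, Phgdh, which had 654, 716 and 631 in LysMcre-labelled G-CSF libraries, against 274, 229.5 and 197 in LysMcre-labelled untreated libraries. In floxed cells Phgdh had 442, 524 and 543 in floxed G-CSF libraries, against 224, 230.4 and 216 in floxed untreated libraries. The next enzyme, the aminotransferase Psat1, had 574, 531 and 545 in LysMcre-labelled G-CSF libraries, against 221, 185 and 199.6 in LysMcre-labelled untreated libraries. Both enzymes were higher in every G-CSF library than in any untreated one. In floxed cells Psat1 had 333, 436 and 429 in floxed G-CSF libraries, against 188, 184 and 168 in floxed untreated libraries. The differences of Phgdh were 1.52 (SE 0.11) and 1.16 (SE 0.11), and those of Psat1 1.45 (SE 0.11) and 1.14 (SE 0.11); the largest limma adjusted p of these 4 was 4.25e-07. The last enzyme, the phosphatase Psph, had 69.3, 82.6 and 76.2 in LysMcre-labelled G-CSF libraries, against 86.2, 84.2 and 92.8 in LysMcre-labelled untreated libraries. In floxed cells Psph had 85.6, 87.6 and 85.7 in floxed G-CSF libraries, against 77.8, 82.2 and 81.9 in floxed untreated libraries. Psph passed in neither genotype, with intervals of -0.47 to 0.057 in LysMcre-labelled and -0.17 to 0.36 in floxed cells; it shares 452 of its 4329 exon bases with Cct6a.

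Gpt2, the mitochondrial alanine aminotransferase, had 107, 121 and 141 in LysMcre-labelled G-CSF libraries, against 53.6, 54.2 and 35.3 in LysMcre-labelled untreated libraries. Floxed libraries had 63.9, 84.1 and 83.8 in floxed G-CSF libraries, against 43.7, 49.7 and 40.5 in floxed untreated libraries. It rose by 1.37 (SE 0.19, limma adjusted p = 1.41e-05) in LysMcre-labelled and 0.77 (SE 0.19, limma adjusted p = 0.00343) in floxed cells, from a low level.

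Of the 5 folate enzymes that pass on serine's carbon, 5 rose in LysMcre-labelled cells and 4 in floxed cells, with Shmt2 at the largest difference in each. Shmt2, which splits serine to glycine in mitochondria, had 1018, 1027 and 1048 in LysMcre-labelled G-CSF libraries, against 419, 365 and 318 in LysMcre-labelled untreated libraries. In floxed cells Shmt2 had 687, 744 and 826 in floxed G-CSF libraries, against 375, 409 and 309.6 in floxed untreated libraries. The groups were far apart, with differences of 1.49 (SE 0.11, limma adjusted p = 9.35e-09) and 1.05 (SE 0.11, limma adjusted p = 1.07e-06). Mthfd2, the next mitochondrial enzyme, had 1616, 1759 and 1912 in LysMcre-labelled G-CSF libraries, against 835, 706 and 679.6 in LysMcre-labelled untreated libraries. In floxed cells Mthfd2 had 1623, 1439 and 1504 in floxed G-CSF libraries, against 958, 873 and 700.2 in floxed untreated libraries. It rose by 1.25 (SE 0.11) and 0.86 (SE 0.11) (limma adjusted p = 5.62e-08 and 6.81e-06).

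Mthfd1l, which releases formate from mitochondria, had 344, 348 and 334 in LysMcre-labelled G-CSF libraries, against 168, 140.1 and 149 in LysMcre-labelled untreated libraries. In floxed cells Mthfd1l had 242, 254 and 267 in floxed G-CSF libraries, against 133, 168 and 132 in floxed untreated libraries. Its differences were 1.16 (SE 0.11) and 0.82 (SE 0.11) (limma adjusted p = 1.59e-07 and 1.28e-05). The cytosolic trifunctional enzyme Mthfd1 had 257, 278 and 278 in LysMcre-labelled G-CSF libraries, against 97.8, 103 and 111 in LysMcre-labelled untreated libraries. In floxed cells Mthfd1 had 206, 203 and 220.3 in floxed G-CSF libraries, against 94.9, 98.5 and 115 in floxed untreated libraries. Mthfd1 rose by 1.37 (SE 0.11) and 1.03 (SE 0.11) (limma adjusted p = 1.58e-08 and 8.64e-07).

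Shmt1, the cytosolic counterpart of Shmt2, changed least. It had 156, 169.8 and 174 in LysMcre-labelled G-CSF libraries, against 141, 141 and 85.4 in LysMcre-labelled untreated libraries. In floxed cells Shmt1 had 133, 158 and 182 in floxed G-CSF libraries, against 99.1, 133 and 113 in floxed untreated libraries. The rise of 0.48 (SE 0.18, limma adjusted p = 0.0338) in LysMcre-labelled cells was not called without LysMcre-labelled G-CSF replicates 2 or 3 or LysMcre-labelled untreated replicate 3 (0.24 to 0.46, limma adjusted p = 0.0789 to 0.2), and the floxed difference of 0.45 (SE 0.18, limma adjusted p = 0.0533) did not pass.

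Among cytosolic synthetases Aars (chr8:111033144-111057664, plus strand) rose most. It had 3519, 3766 and 3791 in LysMcre-labelled G-CSF libraries, against 1063, 865 and 873 in LysMcre-labelled untreated libraries. In floxed cells Aars had 2587, 2375 and 2366 in floxed G-CSF libraries, against 984, 955 and 912 in floxed untreated libraries. This is 3.95-fold in LysMcre-labelled and 2.57-fold in floxed cells, with log2 differences of 1.99 (SE 0.075) and 1.36 (SE 0.075) (limma adjusted p = 3.34e-12 and 7.04e-10). Exons of Aars share 1326 of 9282 bases with Exosc6, so part of its count may belong to that gene.

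Dars (chr1:128363707-128417368, minus strand), the aspartyl-tRNA synthetase, went the other way by about as much. It had 619, 443 and 549 in LysMcre-labelled G-CSF libraries, against 2246, 2256 and 2213 in LysMcre-labelled untreated libraries. In floxed cells Dars had 802, 787 and 784 in floxed G-CSF libraries, against 2477, 2339 and 2321 in floxed untreated libraries. The G-CSF level was 4.17-fold lower in LysMcre-labelled and 3.01-fold lower in floxed cells, with log2 differences of -2.07 (SE 0.088) and -1.59 (SE 0.088) (limma adjusted p = 1.53e-11 and 8.33e-10). No other gene shares an exon base with Dars in the annotation.

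Farsb, the beta subunit for phenylalanine, had 260.0, 256 and 254 in LysMcre-labelled G-CSF libraries, against 111, 102 and 129 in LysMcre-labelled untreated libraries. In floxed cells Farsb had 198, 231 and 239 in floxed G-CSF libraries, against 93.8, 119 and 125 in floxed untreated libraries. Its differences were 1.17 (SE 0.13) and 0.98 (SE 0.13), where Farsa, the alpha subunit of the same enzyme, changed by 0.40 (SE 0.074) and 0.26 (SE 0.074) (limma adjusted p = 0.000214 and 0.00865). Tars, for threonine, had 606, 659 and 602 in LysMcre-labelled G-CSF libraries, against 305, 289.7 and 275 in LysMcre-labelled untreated libraries. In floxed cells Tars had 506, 493 and 590.3 in floxed G-CSF libraries, against 287, 286 and 284 in floxed untreated libraries. Tars rose by 1.10 (SE 0.081) and 0.88 (SE 0.081) with no overlap of groups.

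Eprs, a single protein that charges both glutamate and proline tRNA, had 1026, 1105 and 1098 in LysMcre-labelled G-CSF libraries, against 551, 552 and 449 in LysMcre-labelled untreated libraries. In floxed cells Eprs had 793, 801 and 870.0 in floxed G-CSF libraries, against 501, 517 and 491 in floxed untreated libraries. The differences were 1.06 (SE 0.079) and 0.71 (SE 0.079). Iars, for isoleucine, had 682, 725 and 763 in LysMcre-labelled G-CSF libraries, against 406, 368 and 314 in LysMcre-labelled untreated libraries. In floxed cells Iars had 484, 555 and 624 in floxed G-CSF libraries, against 367, 398 and 361 in floxed untreated libraries. Its floxed untreated libraries stood below every floxed G-CSF library, and the differences were 1.00 (SE 0.10) and 0.56 (SE 0.10). Yars, for tyrosine, had 678, 702 and 758 in LysMcre-labelled G-CSF libraries, against 388, 375 and 336 in LysMcre-labelled untreated libraries. In floxed cells Yars had 611, 618 and 572 in floxed G-CSF libraries, against 401, 373 and 319 in floxed untreated libraries. Yars rose by 0.96 (SE 0.089) and 0.72 (SE 0.089).

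Cars, for cysteine, had 1349, 1636 and 1886 in LysMcre-labelled G-CSF libraries, against 789, 749.5 and 797 in LysMcre-labelled untreated libraries. In floxed cells Cars had 1342, 1182 and 1172 in floxed G-CSF libraries, against 762, 780.4 and 707 in floxed untreated libraries. Its LysMcre-labelled G-CSF libraries were the most spread, and the differences were 1.05 (SE 0.097) and 0.71 (SE 0.097). Qars, for glutamine, had 2444, 2539 and 2470.4 in LysMcre-labelled G-CSF libraries, against 1424, 1509 and 1579 in LysMcre-labelled untreated libraries. In floxed cells Qars had 2115, 2046 and 1924 in floxed G-CSF libraries, against 1436, 1504 and 1480.4 in floxed untreated libraries. It rose by 0.73 (SE 0.055) and 0.46 (SE 0.055). For Farsb, Tars, Eprs, Iars, Yars, Cars and Qars the largest limma adjusted p in either genotype was 0.000354, that of Iars in floxed cells.

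Gars and Kars, single genes whose products serve both cytosol and mitochondria, rose by 0.77 (SE 0.063) and 0.27 (SE 0.066) in LysMcre-labelled cells and by 0.51 (SE 0.063) and 0.22 (SE 0.066) in floxed cells. Mars, Nars and Hars rose by 0.50 to 0.70 in LysMcre-labelled and by 0.42 to 0.50 in floxed cells. Wars, for tryptophan, rose by 0.27 (SE 0.088) and 0.24 (SE 0.088), about as little as Kars. In limma the floxed call of Wars was lost without floxed G-CSF replicates 1 or 3 or floxed untreated replicates 1 or 2 (0.19 to 0.22, limma adjusted p = 0.101 to 0.124). Its LysMcre-labelled call was lost without LysMcre-labelled untreated replicate 2 (0.21, limma adjusted p = 0.0727), and the floxed call of Kars without floxed G-CSF replicate 2 (0.16, limma adjusted p = 0.0738). With libraries scaled to equal totals, Wars and Kars passed in neither genotype, Farsa in neither and Hars not in LysMcre-labelled cells.

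Besides Dars, 4 cytosolic synthetases did not rise in both genotypes. Lars, for leucine, had 1308, 1286 and 1463 in LysMcre-labelled G-CSF libraries, against 1131, 1145 and 1276 in LysMcre-labelled untreated libraries. In floxed cells Lars had 1080.1, 1080.4 and 1099.7 in floxed G-CSF libraries, against 1311, 1167 and 1260.2 in floxed untreated libraries. Lars rose in LysMcre-labelled cells by 0.19 (SE 0.068, limma adjusted p = 0.0221), a direction that turns to -0.070 when libraries are scaled to equal totals, and fell in floxed cells, with a difference of -0.20 (SE 0.068, limma adjusted p = 0.0259). The LysMcre-labelled call was lost without LysMcre-labelled G-CSF replicate 3 or LysMcre-labelled untreated replicates 1 or 2 (0.13 to 0.17, limma adjusted p = 0.0794 to 0.11). The floxed call was lost without floxed G-CSF replicates 1 or 2 or floxed untreated replicates 1 or 3 (-0.19 to -0.16, limma adjusted p = 0.0548 to 0.111).

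Sars, for serine, had 1148, 1148 and 1228 in LysMcre-labelled G-CSF libraries, against 1346, 1292 and 1298 in LysMcre-labelled untreated libraries. In floxed cells Sars had 1083, 1119 and 1035 in floxed G-CSF libraries, against 1389.8, 1375 and 1354 in floxed untreated libraries. It fell in both, with differences of -0.16 (SE 0.053, limma adjusted p = 0.0155) and -0.35 (SE 0.053, limma adjusted p = 5.10e-05), and the LysMcre-labelled call was lost without LysMcre-labelled G-CSF replicate 2 or LysMcre-labelled untreated replicate 1 (-0.14, limma adjusted p = 0.057 to 0.062). Rars, for arginine, and Vars, for valine, passed in neither genotype. The Rars intervals were -0.027 to 0.25 in LysMcre-labelled and -0.067 to 0.21 in floxed cells, and the Vars intervals -0.17 to 0.07 and -0.14 to 0.11.

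The mitochondrial synthetases showed no common direction. Rars2, for arginine, had 228, 247 and 221 in LysMcre-labelled G-CSF libraries, against 128, 107 and 99.3 in LysMcre-labelled untreated libraries. In floxed cells Rars2 had 209, 225 and 210.0 in floxed G-CSF libraries, against 101, 95.9 and 104 in floxed untreated libraries. It rose 2.08-fold in LysMcre-labelled and 2.14-fold in floxed cells, with differences of 1.05 (SE 0.11, limma adjusted p = 6.22e-07) and 1.09 (SE 0.11, limma adjusted p = 7.91e-07). Tars2, for threonine, rose in both as well, by 0.70 (SE 0.082) and 0.65 (SE 0.082) (limma adjusted p = 1.92e-06 and 7.03e-06).

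Iars2, for isoleucine, had 369, 409 and 338 in LysMcre-labelled G-CSF libraries, against 553, 509.7 and 493 in LysMcre-labelled untreated libraries. In floxed cells Iars2 had 404, 468 and 452 in floxed G-CSF libraries, against 540.4, 527 and 507 in floxed untreated libraries. It fell in both, with differences of -0.48 (SE 0.084, limma adjusted p = 0.000132) in LysMcre-labelled and -0.25 (SE 0.084, limma adjusted p = 0.0218) in floxed cells, and the floxed call was lost without floxed G-CSF replicate 1 or floxed untreated replicates 1 or 2 (-0.25 to -0.19, limma adjusted p = 0.0546 to 0.0942). Iars2 shares 2034 of 8885 exon bases with Rab3gap2. Aars2, for alanine, had 97.1, 118 and 94.5 in LysMcre-labelled G-CSF libraries, against 137, 148 and 114 in LysMcre-labelled untreated libraries. In floxed cells Aars2 had 107, 97.2 and 91.3 in floxed G-CSF libraries, against 139.6, 134 and 136 in floxed untreated libraries. Its differences were -0.36 (SE 0.13, limma adjusted p = 0.0257) and -0.47 (SE 0.13, limma adjusted p = 0.00807), opposite to those of Aars, and the LysMcre-labelled call was lost without LysMcre-labelled G-CSF replicates 1 or 3 or LysMcre-labelled untreated replicates 1 or 2 (-0.34 to -0.28, limma adjusted p = 0.0712 to 0.116).

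Hars2 and Cars2 fell in LysMcre-labelled cells and did not pass in floxed cells, and the difference between the genotypes' responses passed for Cars2 and not for Hars2 (limma adjusted p = 0.0368 and 0.203). Hars2, for histidine, had 317, 367 and 385 in LysMcre-labelled G-CSF libraries, against 469, 473 and 441 in LysMcre-labelled untreated libraries. In floxed cells Hars2 had 439.8, 454 and 421 in floxed G-CSF libraries, against 452, 511 and 497 in floxed untreated libraries. The differences were -0.37 (SE 0.083, limma adjusted p = 0.000997) and -0.15 (SE 0.083, limma adjusted p = 0.154), and Hars2 shares 195 exon bases with its neighbour Hars. Cars2, for cysteine, had 342, 323 and 315 in LysMcre-labelled G-CSF libraries, against 410.2, 434 and 365 in LysMcre-labelled untreated libraries. In floxed cells Cars2 had 426, 381 and 391 in floxed G-CSF libraries, against 417, 350.4 and 353 in floxed untreated libraries. The differences were -0.30 (SE 0.091, limma adjusted p = 0.00936) and 0.099 (SE 0.091, limma adjusted p = 0.397); the LysMcre-labelled call was lost without LysMcre-labelled untreated replicate 2 (-0.24, limma adjusted p = 0.0515).

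Sars2, for serine, had 102, 96.7 and 78.4 in LysMcre-labelled G-CSF libraries, against 57.8, 68.8 and 52.0 in LysMcre-labelled untreated libraries. In floxed cells Sars2 had 63.9, 63.0 and 72.5 in floxed G-CSF libraries, against 61.8, 69.4 and 68.7 in floxed untreated libraries. It rose in LysMcre-labelled cells by 0.62 (SE 0.16, limma adjusted p = 0.00255), and its floxed difference was -0.0041 (SE 0.16). Nars2, for asparagine, was low, with 26.6, 31.8 and 27.9 in LysMcre-labelled G-CSF libraries, against 20.0, 12.0 and 15.8 in LysMcre-labelled untreated libraries. Its LysMcre-labelled rise of 0.84 (SE 0.31, limma adjusted p = 0.0278) was lost without LysMcre-labelled G-CSF replicates 2 or 3 or LysMcre-labelled untreated replicates 2 or 3 (0.66 to 0.86, limma adjusted p = 0.0535 to 0.113), and with equal totals neither Nars2 nor Sars2 passed. The other 9 passed in neither genotype, among them Ears2, Fars2, Lars2, Mars2, Pars2, Vars2, Wars2 and Yars2. Lars2 varied widely within a group, with 1305, 1949.6 and 2262 in LysMcre-labelled G-CSF libraries.

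Vldlr, a receptor for lipoproteins that carry apolipoprotein E, was near the lower end of the range measured. It had 39.3, 30.7 and 29.0 in LysMcre-labelled G-CSF libraries, against 10.5, 5.16 and 9.28 in LysMcre-labelled untreated libraries. In floxed cells Vldlr had 36.8, 15.8 and 32.0 in floxed G-CSF libraries, against 19.2, 11.1 and 5.65 in floxed untreated libraries, and these floxed groups overlapped. It rose by 1.90 (SE 0.41, limma adjusted p = 0.000875) in LysMcre-labelled and 1.23 (SE 0.41, limma adjusted p = 0.0227) in floxed cells. The floxed call was lost without floxed G-CSF replicates 1 or 3 or floxed untreated replicate 3 (0.82 to 1.10, limma adjusted p = 0.0795 to 0.116).

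The genes with a CARE match were among those that rose. Of these 9 members, 8 rose in LysMcre-labelled cells, with a median log2 difference of 1.10, and 9 rose in floxed cells, with a median of 0.88. Of the 35 members with a window and no match, 22 rose in LysMcre-labelled cells (median 0.62) and 18 in floxed cells (median 0.46). The exception in LysMcre-labelled cells was Chac1. Over all genes tested, 31.1% rose in LysMcre-labelled and 24.1% in floxed cells. Genes outside the module that hold a match were not counted by direction. The medians describe the members and were not tested.

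With G-CSF present, LysMcre-labelled cells had higher levels of many members than floxed cells. In that comparison 22 of 55 members were higher, against 17.1% of all genes tested, and 6 were lower, against 18.9%. The median log2 difference of the members was 0.21, against -0.0087 over all genes. By role, 11 of 20 cytosolic synthetases were higher and 1 lower, 2 of 17 mitochondrial synthetases were higher and 4 lower, and 9 of the 18 other members were higher and 1 lower. This comparison and the 2 above share libraries, so their values are set side by side and not correlated. With equal totals 12 members were higher and 7 lower, 28.2% of all calls were rises, where the deposited scaling gives 47.5%, and the median of all genes shifts to -0.13. Of all 13915 genes, 1542 were then higher and 3929 lower.

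Ddit4 had the largest positive difference among members, 0.77 (SE 0.12, limma adjusted p = 0.00012). Its LysMcre-labelled G-CSF libraries, at 371, 469 and 410.1, were all above the floxed G-CSF libraries, at 245, 231 and 253. Gpt2 followed at 0.67 (SE 0.19, limma adjusted p = 0.0126), and that call was lost without LysMcre-labelled G-CSF replicate 3 or floxed G-CSF replicate 1 (0.54 to 0.57, limma adjusted p = 0.0604 to 0.0611). Asns was 1.53-fold higher, at 1988 ± 107 normalized counts in LysMcre-labelled and 1302 ± 81.6 in floxed G-CSF libraries (SD, n = 3 each), a log2 difference of 0.61 (SE 0.11, limma adjusted p = 0.0003). Sesn2 was higher by 0.48 (SE 0.082, limma adjusted p = 0.000273).

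The serine and folate genes were higher by smaller amounts. Psat1 differed by 0.47 (SE 0.11), Shmt2 by 0.46 (SE 0.11), Mthfd1l by 0.43 (SE 0.11), Phgdh by 0.41 (SE 0.11) and Mthfd1 by 0.37 (SE 0.11); their limma adjusted p lay between 0.00272 and 0.0127. The Phgdh call was lost without floxed G-CSF replicate 1 (0.32, limma adjusted p = 0.0503). Mthfd2 and Shmt1 did not pass, with intervals of -0.019 to 0.44 and -0.30 to 0.48. With equal totals Phgdh, Mthfd1 and Mthfd1l did not pass either.

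The core factors did not differ past the threshold by genotype label. Atf4 was at 4300.2 ± 199 in LysMcre-labelled and 4084 ± 188 in floxed G-CSF libraries (SD, n = 3 each), with an interval of -0.053 to 0.20 for the log2 difference. The interval of Trib3 was -0.24 to 0.21, that of Ddit3 -0.015 to 0.41 and that of Atf5 -0.0061 to 0.77. Chac1 was lower in LysMcre-labelled G-CSF libraries, at 178, 205 and 248, than in floxed G-CSF libraries, at 395, 291 and 288, a difference of -0.62 (SE 0.15, limma adjusted p = 0.00393).

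Among synthetases Aars was again the most raised, at 3692 ± 150.1 in LysMcre-labelled and 2443 ± 125 in floxed G-CSF libraries (SD, n = 3 each), a difference of 0.60 (SE 0.075, limma adjusted p = 1.50e-05). Dars was the most lowered, at 537 ± 88.6 in LysMcre-labelled and 791 ± 9.32 in floxed G-CSF libraries (SD, n = 3 each), a difference of -0.57 (SE 0.088, limma adjusted p = 0.000116). Eprs, Iars, Cars and Lars differed by 0.39, 0.39, 0.39 and 0.31, and Qars and Mars by 0.29 and 0.29, with limma adjusted p between 0.000576 and 0.00806. Gars, Tars, Yars and Farsa were higher by 0.20 to 0.25.

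Several of these calls were lost when 1 library was left out. The Yars call was lost without LysMcre-labelled G-CSF replicates 2 or 3, LysMcre-labelled untreated replicate 2, floxed G-CSF replicates 1, 2 or 3 or floxed untreated replicate 2 (0.20 to 0.27, limma adjusted p = 0.0505 to 0.143). The Tars call was lost without LysMcre-labelled G-CSF replicate 2 or floxed G-CSF replicates 1 or 2 (0.19 to 0.20, limma adjusted p = 0.106 to 0.135). The Farsa call was lost without LysMcre-labelled G-CSF replicates 1 or 2, LysMcre-labelled untreated replicate 2, floxed G-CSF replicates 1, 2 or 3 or floxed untreated replicates 1, 2 or 3 (0.18 to 0.21, limma adjusted p = 0.0535 to 0.135). With equal totals Gars, Iars, Tars, Yars and Farsa did not pass, nor did the mitochondrial Sars2 and Yars2.

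Of the mitochondrial enzymes, Sars2 and Yars2 were higher and Hars2, Cars2 and Iars2 lower in LysMcre-labelled G-CSF libraries. Sars2 was at 102, 96.7 and 78.4 in LysMcre-labelled and 63.9, 63.0 and 72.5 in floxed G-CSF libraries, a difference of 0.46 (SE 0.16, limma adjusted p = 0.031), and the call was lost without LysMcre-labelled G-CSF replicates 1 or 2 or floxed G-CSF replicates 1 or 2 (0.39 to 0.43, limma adjusted p = 0.0807 to 0.11). Yars2, for tyrosine, was at 80.9, 93.2 and 87.0 in LysMcre-labelled and 57.4, 63.0 and 70.6 in floxed G-CSF libraries, a difference of 0.45 (SE 0.14, limma adjusted p = 0.0206), and the call was lost without LysMcre-labelled G-CSF replicate 2 or floxed G-CSF replicates 1 or 2 (0.38 to 0.44, limma adjusted p = 0.0525 to 0.0791). Both pairs of groups were without overlap. Hars2, Cars2 and Iars2 differed by -0.30 (SE 0.083), -0.29 (SE 0.091) and -0.25 (SE 0.084). The Cars2 call was lost without LysMcre-labelled G-CSF replicates 2 or 3 or floxed G-CSF replicate 1 (-0.28 to -0.24, limma adjusted p = 0.0597 to 0.0853). The Iars2 call was lost without LysMcre-labelled G-CSF replicates 1 or 3 or floxed G-CSF replicates 2 or 3 (-0.24 to -0.18, limma adjusted p = 0.0669 to 0.137).

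**Figure D4:**
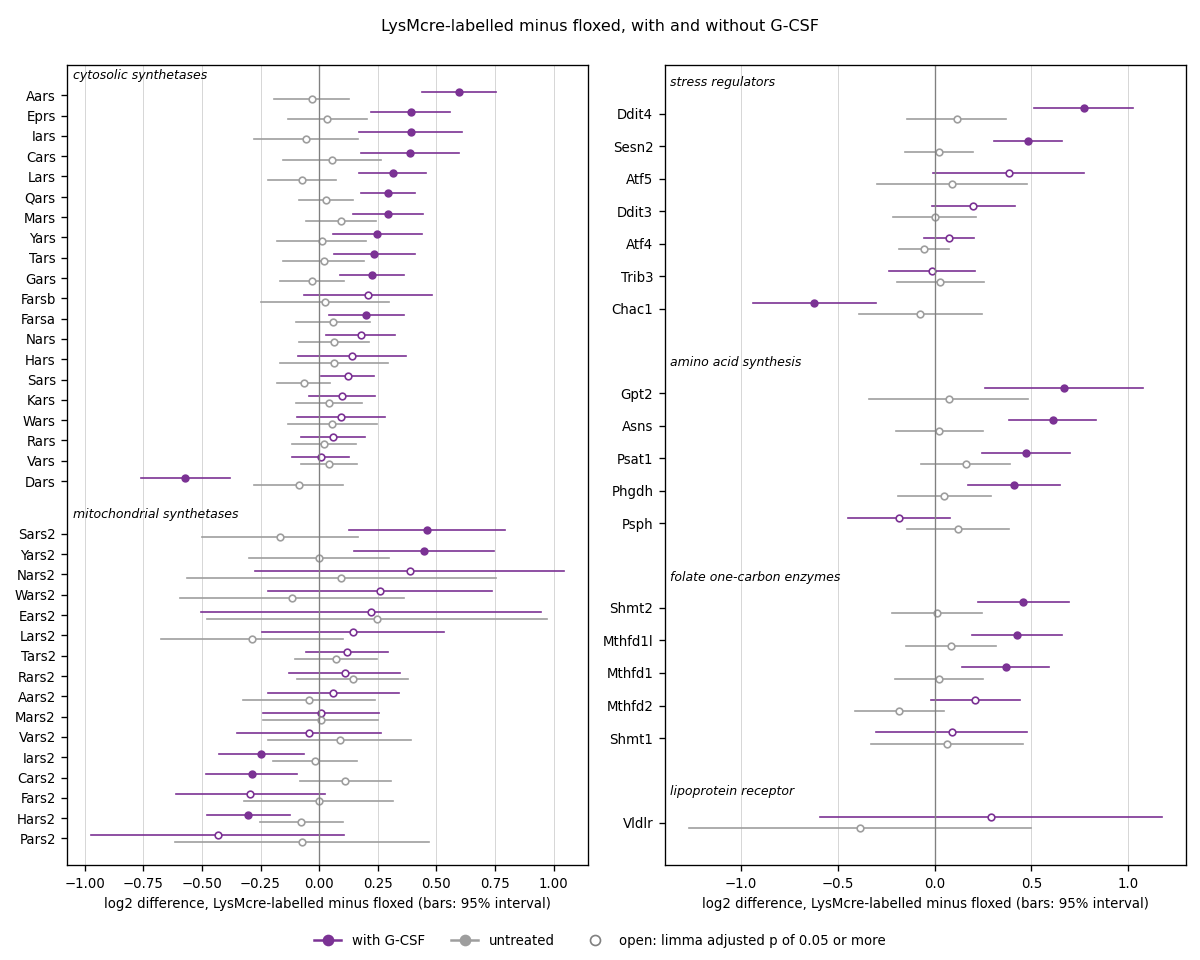
Log2 difference, LysMcre-labelled minus floxed, for 54 members by role (vertical axis), with G-CSF (purple, upper) and untreated (grey, lower); lines are 95% intervals and open points did not pass. All 54 grey points are open, and of the filled purple points 22 lie right of 0 and 5 left of it.

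Untreated, no member passed the test between LysMcre-labelled and floxed cells. In limma 0 members were higher, against 0.0647% of all genes, and 0 lower, against 0.0503%; edgeR and DESeq2 on recovered reads also called 0. Unadjusted, 0 of the 55 members had a limma p under 0.05, and 465 of 13915 genes did. The median log2 difference was 0.022, and differences ran from -0.39 for Vldlr to 0.25 for Ears2. For the 20 cytosolic synthetases the 95% intervals lay between -0.28 and 0.30. Intervals of the low genes were wider, and that of Vldlr was -1.27 to 0.50.

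The G-CSF response itself differed between genotype labels for 10 members. In the interaction, the G-CSF difference in LysMcre-labelled cells minus that in floxed cells, 8 members (14.55%) were higher, against 10.9% of all genes, and 2 (3.64%) were lower, against 11.5%. In either direction 18.2% of the members were called, fewer than the 22.4% of all genes, so interaction calls were no more frequent in the module than elsewhere. The higher ones were Ddit4, Aars, Asns, Sesn2, Iars, Lars, Eprs and Qars, and the lower ones Dars and Cars2. Aars had 0.63 (SE 0.11, limma adjusted p = 0.000488), Ddit4 0.65 (SE 0.17, limma adjusted p = 0.0112), Asns 0.59 (SE 0.15, limma adjusted p = 0.00995) and Sesn2 0.46 (SE 0.12, limma adjusted p = 0.00961). Lars had 0.39 (SE 0.095, limma adjusted p = 0.00834) and Dars -0.48 (SE 0.13, limma adjusted p = 0.0112).

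The remaining interaction calls were close to the threshold. The call of Iars was lost without LysMcre-labelled G-CSF replicates 2 or 3, LysMcre-labelled untreated replicates 2 or 3, floxed G-CSF replicates 1 or 2 or floxed untreated replicates 1 or 2 (0.35 to 0.46, limma adjusted p = 0.0596 to 0.098). The Eprs call was lost without LysMcre-labelled G-CSF replicates 2 or 3, LysMcre-labelled untreated replicate 3, floxed G-CSF replicates 1 or 2 or floxed untreated replicates 1 or 2 (0.26 to 0.36, limma adjusted p = 0.0579 to 0.0769). The Qars call was lost without LysMcre-labelled G-CSF replicate 2, LysMcre-labelled untreated replicate 1, floxed G-CSF replicate 3 or floxed untreated replicate 2 (0.23 to 0.25, limma adjusted p = 0.0529 to 0.0647). That of Cars2 was lost without LysMcre-labelled G-CSF replicates 2 or 3, LysMcre-labelled untreated replicates 1 or 2, floxed G-CSF replicates 1 or 3 or floxed untreated replicates 2 or 3 (-0.41 to -0.34, limma adjusted p = 0.0517 to 0.0995). Without floxed untreated replicate 2, 5 members were higher. The count of lower ones was 1 without LysMcre-labelled G-CSF replicate 2, LysMcre-labelled untreated replicate 1 or 2, floxed G-CSF replicate 1 or 3, or floxed untreated replicate 2 or 3. With equal totals 2 were higher, Aars and Sesn2, and 6 lower, 23.0% of all calls were higher, where the deposited scaling gives 48.6%, and the median of all genes shifts to -0.18. Of all 13915 genes, 896 were then higher and 2994 lower. The interaction of Chac1, -0.55 (SE 0.21, limma adjusted p = 0.0777), did not pass.

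Genes of the surrounding pathway were counted in the same fits, where 31.1% of all genes rose and 31.6% fell in LysMcre-labelled cells, 24.1% rose and 24.6% fell in floxed cells, and 17.1% were higher and 18.9% lower by genotype with G-CSF. Among 16 amino acid transporters, 10 rose and 3 fell in LysMcre-labelled cells, 9 rose and 3 fell in floxed cells, and with G-CSF 7 were higher and 0 lower in LysMcre-labelled than in floxed cells. Slc7a5, which exchanges large neutral amino acids such as leucine, had 9582, 10452 and 10653 in LysMcre-labelled G-CSF libraries, against 595, 459 and 338 in LysMcre-labelled untreated libraries. In floxed cells Slc7a5 had 4757, 4028 and 4037 in floxed G-CSF libraries, against 441, 474 and 327 in floxed untreated libraries. Its log2 differences were 4.50 (SE 0.16) and 3.38 (SE 0.16). Slc3a2, the heavy chain that Slc7a5 and the cystine carrier Slc7a11 both need, had differences of 2.57 (SE 0.061) and 1.10 (SE 0.061), and those of Slc7a11 were 3.48 (SE 0.10) and 1.62 (SE 0.10). By genotype with G-CSF, Slc3a2 and Slc7a5 were higher in LysMcre-labelled cells by 1.58 (SE 0.061) and 1.26 (SE 0.16). The carriers Slc7a7, Slc36a1 and Slc43a2 fell in both genotypes, with log2 differences of -0.96, -0.81 and -0.28 in LysMcre-labelled cells and -0.93, -0.78 and -1.02 in floxed cells. The largest limma adjusted p of these 12 differences was 0.0241.

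Of 12 other partners or targets of ATF4 and CHOP, 8 rose and 3 fell in LysMcre-labelled cells, 6 rose and 2 fell in floxed cells, and 7 were higher and 0 lower by genotype with G-CSF. Cebpb, a transcription factor that pairs with ATF4, had 26498, 29191 and 30140.5 in LysMcre-labelled G-CSF libraries, against 3085, 3253 and 2669 in LysMcre-labelled untreated libraries. In floxed cells Cebpb had 15747, 14716 and 12123 in floxed G-CSF libraries, against 2497, 2816 and 2723 in floxed untreated libraries. Cebpb rose by 3.25 (SE 0.094, limma adjusted p = 1.63e-13) in LysMcre-labelled and 2.40 (SE 0.094, limma adjusted p = 1.48e-11) in floxed cells. Aldh18a1, which makes the proline precursor, and the stress protein gene Nupr1 followed, at 2.78 (SE 0.092) and 2.23 (SE 0.16) in LysMcre-labelled and 1.86 (SE 0.092) and 2.09 (SE 0.16) in floxed cells. Those that fell in LysMcre-labelled cells were Jdp2 (-0.41 (SE 0.084)), Herpud1 (-0.40 (SE 0.061)) and Ero1l (-0.21 (SE 0.079)), and in floxed cells Ero1l (-0.69 (SE 0.079)) and Jdp2 (-0.50 (SE 0.084)).

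Of 14 eIF2alpha kinases, phosphatases and sensors, 7 rose and 2 fell in LysMcre-labelled cells, 5 rose and 3 fell in floxed cells, and 4 were higher and 1 lower by genotype with G-CSF. The rises made up 50% and 35.7% of the list, against 31.1% and 24.1% of all genes, and the falls 14.3% and 21.4%, against 31.6% and 24.6%. Eif2ak3, which encodes PERK, had 1017, 1065 and 1095 in LysMcre-labelled G-CSF libraries, against 3504, 3786 and 3009 in LysMcre-labelled untreated libraries. In floxed cells Eif2ak3 had 1713, 1664 and 1555 in floxed G-CSF libraries, against 3569, 3632 and 3224 in floxed untreated libraries. It fell in both genotypes, with differences of -1.69 (SE 0.077, limma adjusted p = 3.20e-11) and -1.08 (SE 0.077, limma adjusted p = 1.41e-08). Eif2ak4, which encodes GCN2, passed in neither, with intervals of -0.29 to 0.22 and -0.34 to 0.17; it was looked up after its values were seen. The phosphatase subunits that undo eIF2alpha phosphorylation rose, Ppp1r15a by 1.56 (SE 0.15) and 0.80 (SE 0.15) and Ppp1r15b by 0.89 (SE 0.054) and 0.57 (SE 0.054).

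Of 20 genes of amino acid sensing to mTORC1, 2 rose and 11 fell in LysMcre-labelled cells, 1 rose and 9 fell in floxed cells, and 1 was higher and 6 lower by genotype with G-CSF. Rragd, a Rag GTPase, fell, with differences of -3.27 (SE 0.15, limma adjusted p = 4.90e-11) in LysMcre-labelled and -2.94 (SE 0.15, limma adjusted p = 4.19e-10) in floxed cells. Mlst8, a subunit of mTOR complexes, changed by -2.24 (SE 0.13) and -1.31 (SE 0.13), and Lamtor4, of the lysosomal anchor for the Rag proteins, by -1.69 (SE 0.077) and -0.97 (SE 0.077). Rheb, the activator of mTORC1, rose by 0.51 (SE 0.063) and 0.50 (SE 0.063), and Tsc1, a subunit of its inhibitor, by 0.48 (SE 0.068) in LysMcre-labelled cells. Tsc2, another subunit of that inhibitor, was lower with G-CSF. It averaged 1033 ± 40.5 in LysMcre-labelled G-CSF and 1574 ± 56.1 in LysMcre-labelled untreated libraries (SD, n = 3 each). In floxed cells Tsc2 averaged 1252 ± 111 with G-CSF and 1524 ± 77.7 untreated.

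Of 20 other folate, glycine and methionine cycle genes, 12 rose and 4 fell in LysMcre-labelled cells, 10 rose and 3 fell in floxed cells, and 6 were higher and 1 lower by genotype with G-CSF. The rises were 60% and 50% of the list, against 31.1% and 24.1% of all genes, and the falls 20% and 15%, against 31.6% and 24.6%. Gcsh, of the glycine cleavage system, rose by 2.11 (SE 0.23) and 1.06 (SE 0.23), Mthfd2l, the close relative of Mthfd2, by 2.04 (SE 0.25) and 1.24 (SE 0.25), and the folate carrier Slc19a1 by 1.70 (SE 0.21) and 1.47 (SE 0.21). Of 16 synthetase partners and charging accessories, 6 rose and 3 fell in LysMcre-labelled cells, 4 rose and 2 fell in floxed cells, and 1 was higher and 1 lower by genotype with G-CSF. Their rises, 37.5% and 25% of the list, lay near the 31.1% and 24.1% of all genes. Eef1e1, a scaffold protein of the multisynthetase complex, rose by 1.34 (SE 0.20) and 1.31 (SE 0.20), while Dtd1, which clears D-amino acids from tRNA, fell, with differences of -1.11 (SE 0.13) and -0.63 (SE 0.13).

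**Figure D5:**
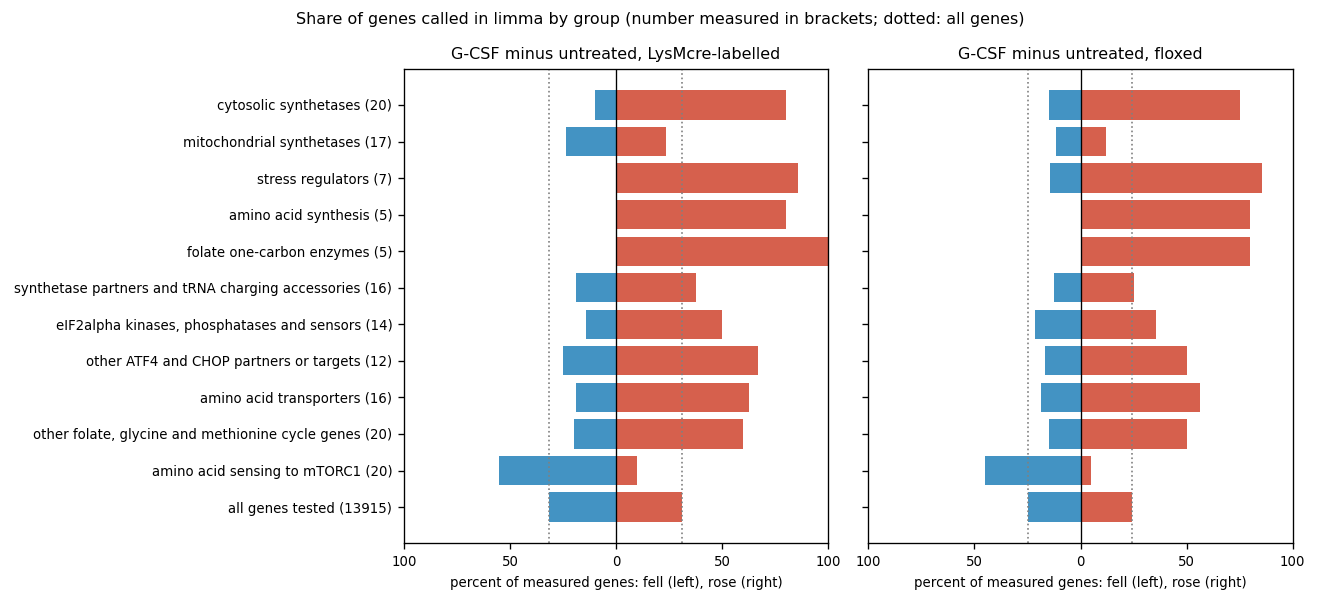
Percent of the measured genes of each role and pathway list that rose (red, right) or fell (blue, left) with G-CSF in limma, in LysMcre-labelled (left panel) and floxed (right panel) cells; dotted lines give the percent over all genes. Amino acid sensing to mTORC1 is the list with the most falls, 11 of 20 in LysMcre-labelled cells and 9 of 20 in floxed cells.

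Levels can be set side by side only per length. Per kilobase of merged exon, Atf4 had the highest value in LysMcre-labelled G-CSF libraries, at 1824 ± 84.3 normalized counts per kb (SD, n = 3). Sesn2 was next at 1654 ± 181, a gap smaller than the Sesn2 SD. Atf5 was at 769 ± 42.0 per kb, Asns at 727 ± 39.0 and Nars, the highest synthetase, at 724 ± 23.4, and Asns and Nars differed by less than their SDs. The lowest members were Vldlr at 3.28 ± 0.549 and Nars2 at 4.13 ± 0.393 per kb. In LysMcre-labelled untreated libraries Dars, at 514 ± 5.28 per kb, was the highest synthetase, next to Nars at 487 ± 37.0. Merged exons hold the bases of all annotated transcripts of a gene, so this order depends on the annotation. Aars had more counts than Nars in LysMcre-labelled G-CSF libraries, 3692 against 3154, over 9282 against 4355 exon bases.

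Markers of other cell types moved with some groups. The 8 B cell markers summed to 10288 to 17029 normalized counts in LysMcre-labelled G-CSF libraries, against 7029 to 10625 in floxed G-CSF libraries, with 1 of 8 higher and 0 lower in limma; none was at 0. The 8 progenitor markers summed to 16549 to 18504 in LysMcre-labelled G-CSF libraries, against 11660 to 11896 in LysMcre-labelled untreated ones, and 3 rose and 1 fell. In floxed cells they summed to 14070 to 18518 with G-CSF, against 7874 to 14129 untreated, and 4 rose and 1 fell. Kit changed these sums most. It averaged 6166 ± 185 in LysMcre-labelled G-CSF and 800 ± 35.6 in LysMcre-labelled untreated libraries (SD, n = 3 each). In floxed cells Kit averaged 2933 ± 181 with G-CSF and 783 ± 60.8 untreated. Prtn3 and Ctsg also rose in both genotypes and Elane in floxed cells only. Myb fell in both, and Mpo, Cd34 and Flt3 passed in neither. The 9 monocyte and macrophage markers summed to 18941 to 22115 in LysMcre-labelled G-CSF libraries, against 23664 to 26619 in LysMcre-labelled untreated ones, and 3 rose and 2 fell. In floxed cells they summed to 19947 to 24468 with G-CSF, against 24327 to 25748 untreated, and 5 rose and 2 fell. Ly6c2 set the direction of these sums: it averaged 2254 ± 121 in LysMcre-labelled G-CSF and 10061 ± 939 in LysMcre-labelled untreated libraries (SD, n = 3 each), while Cd68, Ccr2 and F13a1 rose in both genotypes. The 6 T and NK cell markers measured summed to at most 606, and the 6 erythroid markers to at most 1587, in any library. In either direction, 50% of progenitor and 55.6% of monocyte and macrophage markers were called in LysMcre-labelled cells, against 62.6% of all genes. In floxed cells these shares were 62.5% and 77.8%, against 48.75% of all genes. Of the B cell markers, 12.5% were called by genotype with G-CSF, against 36.0% of all genes. The part of these cell types in the members' results was not tested.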

How the data were processed

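RNA from 12 libraries in 4 groups of 3 was analysed. Groups follow the sample titles, except for the 3 LysMcre-labelled G-CSF libraries, whose titles also say untreated and which were placed by their description and genotype fields. The authors deposited a signal unit, reads per gene divided by a size factor, as the values themselves show: 100% came out as whole reads at a tolerance of 0.01 read, and 3 reads are worth 2.57 to 3.54 normalized counts. Reads were mapped to mm10 according to the submitters' processing notes. Which aligner and counter were used, and whether counting used strand, is not given in the sources at hand.

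The test used log2(value + 1) after dropping rows whose mean was under 10 (13915 remained), and limma 3.58.1 in R 4.3.3 was fitted to all 4 groups together with a trended prior and 8 residual degrees of freedom. Tests were two-sided with Benjamini-Hochberg adjustment over all genes and a threshold of 0.05, in 5 comparisons. Differences are on the log2(value + 1) scale, which understates changes of low genes. edgeR 4.0.16 and DESeq2 1.42.0 on the recovered reads, other pseudocounts, filters and scalings, a replicate block and leaving out each library were alternatives. Replicates differed by more than sampling noise, so all 12 were counted. Scripts were tested on simulated data.

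Members and pathway lists were chosen with earlier results of these data known. Library values are given for members outside the synthetases and for synthetases with up to 5 of the largest rises and falls per comparison; up to 3 genes per direction of a pathway list are named, with a few others added after their values were seen. Positions are from GENCODE mouse release M21 and promoters from RefSeq on GRCm38.p6. The values of 1 member and the sequence of 1 promoter, both included in the counts, are not reported here. Intervals cover the spread between libraries only.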

Additional observations from a re-analysis of the deposited data

Results flagged for a closer look

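The response to G-CSF differed between genotype labels, by limma's test of the interaction, for 10 of the 55 members (18.2%), against 22.4% of all genes tested. The value is the log2 G-CSF difference in LysMcre-labelled libraries minus that in floxed libraries. Among stress regulators and amino acid synthesis it was 0.655 for Ddit4 (limma adjusted p = 0.0112), 0.460 for Sesn2 (0.00961) and 0.586 for Asns (0.00995). Among cytosolic synthetases it was 0.628 for Aars (limma adjusted p = 0.000488), 0.446 for Iars (0.0403), 0.387 for Lars (0.00834), 0.356 for Eprs (0.033), 0.265 for Qars (0.022) and -0.484 for Dars (0.0112). For the mitochondrial Cars2 it was -0.399 (limma adjusted p = 0.0368). Ddit4 and Lars are the members whose G-CSF difference was called in opposite directions in the 2 genotypes, and with libraries scaled to equal totals the difference of Lars in LysMcre-labelled cells is -0.070 (limma adjusted p = 0.338). Groups of 3 libraries are too small for a check of single outlying libraries.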

How the results depend on the processing

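Of 118 calls over the 55 members and 5 comparisons, 39 were lost under at least 1 of 22 alternatives, and 1 value changed direction. Scaling every library to the same total had the largest effect: 12 members then fell with G-CSF in LysMcre-labelled cells (6 otherwise), 12 were higher by genotype with G-CSF (22 otherwise), 2 were higher in the interaction (8 otherwise) and 6 lower (2 otherwise), and the G-CSF difference of Lars in LysMcre-labelled cells was -0.070 (limma adjusted p = 0.338). Over all 13915 genes, 6315 fell with G-CSF in LysMcre-labelled cells on that scale (4392 otherwise). By genotype with G-CSF, 1542 of all genes were higher (2379 otherwise). In the interaction 896 of all genes were higher (1513 otherwise) and 2994 lower (1599 otherwise). Quantile normalization left 1 member lower in the interaction. Leaving out 1 library at a time gave 5 to 11 members higher and 1 to 3 lower in the interaction, 15 to 23 higher and 4 to 6 lower by genotype with G-CSF, 32 to 37 rising in LysMcre-labelled and 30 to 34 in floxed cells. The cause was not tested. The other pseudocounts and the absence of a filter moved no call, edgeR and DESeq2 ended 1 and 3 calls, and fitting only the groups compared ended 4. By genotype with G-CSF, DESeq2 did not call Farsa, Sars2 or Yars2, and edgeR did not call Iars2.

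Same-numbered libraries of different groups had correlations of their deviations from -0.178 to 0.321 over 18 pairs, 4 of them above 0.1. Most of these pairs cross genotypes, where no mouse can be shared. Between G-CSF and untreated libraries numbered 1, 2 and 3, they were 0.321, 0.199 and 0.061 in floxed cells. In LysMcre-labelled cells they were 0.214, -0.032 and 0.030. The values of LysMcre-labelled untreated replicate 2 are headed with the number 3, as are those of replicate 3. The number in the sample title was used here and for the block below. With replicates 2 and 3 of that group exchanged, G-CSF replicate 2 would have 0.080 and G-CSF replicate 3 would have 0.163. These values do not settle whether the numbers pair libraries within a genotype, and the main fit treats all libraries as unpaired. With the number as a replicate block, 20 members were higher by genotype with G-CSF and 7 in the interaction, and the block ended 3 calls, those of Farsa and Tars by genotype with G-CSF and of Iars in the interaction. Depth limits Vldlr, Ears2, Nars2 and Pars2, whose intervals were the widest.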
